A study of Mus musculus with 8 samples.

Results

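The 6 genes described here encode the Id proteins Id1, Id2 and Id3 and the E proteins Tcf3 (E2A), Tcf4 (E2-2) and Tcf12 (HEB). They were chosen by gene symbol, as every probe set on the array whose only annotated symbol is one of these names, which gave 19 of 45101 probe sets and 6 of the 18193 genes with a symbol of their own. The brightest probe set of a gene, by its mean on the 8 arrays, gives the value below, and its other probe sets serve as a check. The RNA was that of primary CD4+ T cells (mouse strain BALB/c) and was measured on Affymetrix mouse expression arrays, 2 arrays in each of 4 groups. The control cells were not stimulated and got the solvent DMSO, and the dorsomorphin cells were not stimulated and got 4 µM dorsomorphin. The stimulated cells spent 1 h on plate-bound antibody to CD3 with soluble antibody to CD28 before the solvent was added, and the stimulated plus dorsomorphin cells got 4 µM dorsomorphin after the same 1 h. All 4 groups were then kept for 6 h in solvent or drug. No transgene, knockout or cell line was involved. The labels do not say whether the 2 arrays of a group came from separate mice or cultures, and any p-value below rests on the scatter of arrays alone, which can be purely technical.

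E proteins are basic helix-loop-helix transcription factors that bind E-box DNA as dimers and guide lymphocyte development and T cell quiescence. Id proteins keep the helix-loop-helix dimer region but lack the basic region that contacts DNA, so that an E protein paired with an Id protein cannot bind its sites. Id genes are classic targets of bone morphogenetic protein (BMP) signals carried by SMAD factors, and in T cells Id3 is also known as a target of the route from the T cell receptor through ERK kinases to Egr factors. Dorsomorphin inhibits the type I BMP receptor kinases and AMP-activated protein kinase.

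The promoters of Id3 and Id2 are shown because Id3 is the member with the lowest adjusted p under dorsomorphin in unstimulated cells and Id2 the member with the lowest adjusted p for the interaction of drug and stimulation. Each run covers 250 bases before to 50 bases after the annotated start, 5′ to 3′ on the gene's own strand, from RefSeq on build GRCm38.p6. Capitals mark every match, on either strand, to any of 5 motifs: the E-box CANNTG, the Egr motif GCGNGGGCG, the SMAD-bound GC element GGCGCC, the short SMAD element GTCT and the cyclic AMP response core TGACG.
Id3, chr4:136143572-136143871, plus strand: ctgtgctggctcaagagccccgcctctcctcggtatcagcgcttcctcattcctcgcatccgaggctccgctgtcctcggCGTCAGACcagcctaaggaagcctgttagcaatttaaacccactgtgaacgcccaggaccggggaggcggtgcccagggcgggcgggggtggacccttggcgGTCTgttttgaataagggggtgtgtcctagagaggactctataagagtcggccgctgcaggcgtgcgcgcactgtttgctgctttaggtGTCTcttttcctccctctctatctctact
Id2, chr12:25096043-25096342, minus strand: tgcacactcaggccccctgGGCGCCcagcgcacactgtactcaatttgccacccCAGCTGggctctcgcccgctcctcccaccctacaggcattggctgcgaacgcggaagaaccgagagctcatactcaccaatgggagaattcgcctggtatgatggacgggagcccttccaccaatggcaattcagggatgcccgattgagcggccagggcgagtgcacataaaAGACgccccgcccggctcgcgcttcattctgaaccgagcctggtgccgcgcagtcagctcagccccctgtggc
The Id3 window held 3 short SMAD elements and 1 cyclic AMP response core, which overlapped 1 of those 3, and no match to the E-box, the Egr motif or the GC element. The Id2 window held 1 E-box (CAGCTG, at positions -196 to -191 from the start), 1 GC element (at -231 to -226) and 1 short SMAD element. The Tcf3 window held 1 E-box and 1 short SMAD element, and each of the 3 Tcf12 windows held 1 or 2 E-boxes and 2 or 3 short SMAD elements. Of the 14276 windows of genes tested here, 86.1% held the short SMAD element, 65.5% an E-box, 28.7% the cyclic AMP response core, 19.2% the GC element and 9.55% the Egr motif, so that single matches of the first pair are common in windows of this length. Windows were at hand for 4 of the 6 genes and not for Id1 or Tcf4. A match describes letters and not a bound site.

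Values are log2 of the deposited linear signal, and differences were tested with limma in a single model over all 8 arrays, with Benjamini-Hochberg adjustment over 13983 tested genes and a threshold of 0.05. A gene was tested if its signal passed a floor of 5.22 on the log2 scale, the 40th percentile of all values, on at least 2 arrays, and 6 of 6 members did. The same group serves in several comparisons: the control arrays enter 3 of the 5 differences between groups, so that these are not independent of each other. The markers of the labelled cells were present on every array, since all 7 of the measured CD4 T cell markers, among them Cd3d, Cd3e, Cd3g and Cd4, lay above the floor on all 8 arrays. The 2 arrays of a group correlated at 0.937 to 0.952 over the tested genes. Of 4 added spike-in RNAs, Dap and Thr differed between replicate numbers in every group: the 3′ signal of Dap exceeded its 5′ signal by 1.51 to 1.65 on the log2 scale on the 4 replicate 1 arrays and by 2.69 to 3.10 on the 4 replicate 2 arrays.

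Id3 was the one of the 6 genes whose 4 groups had no overlapping neighbours in order of level. Its log2 signal was 9.22 and 9.10 on the control arrays, 8.22 and 8.29 on the stimulated arrays, 7.40 and 6.80 on the stimulated plus dorsomorphin arrays and 5.99 and 6.69 on the dorsomorphin arrays. The control arrays were the highest and the dorsomorphin arrays the lowest, and both drug groups lay below both groups without the drug. In linear signal the control arrays read 596 and 549 and the dorsomorphin arrays 63.6 and 103. In unstimulated cells under dorsomorphin Id3 fell by 2.82 ± 0.33 (SE) on the log2 scale, which is 7.05-fold lower (95% interval -3.64 to -1.998, adjusted p = 0.0121 by limma). The array pairs of replicate 1 and of replicate 2 differed by -3.23 and -2.41. Of the 13983 genes tested, 13.1% passed in this comparison, so that a call of this kind was not rare. The call was lost without control replicate 1 (adjusted p = 0.0865) and without control replicate 2 (adjusted p = 0.0939), as were those of every other gene in this comparison: limma then called 0 genes, with 3004 and 2838 at an unadjusted p under 0.05.

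With stimulation and dorsomorphin together, Id3 lay 4.16-fold below the control: it fell by 2.06 ± 0.33 (SE) on the log2 scale (95% interval -2.88 to -1.24, adjusted p = 0.029 by limma). That comparison called 7.22% of genes. This call was lost, while the direction stayed, when arrays were centred on their median over all genes (log2 difference -1.60, adjusted p = 0.0878) or scaled by cyclic loess (-1.42, adjusted p = 0.0913), and without any one of the 4 arrays compared (adjusted p 0.0583 to 0.164). In stimulated cells alone, the dorsomorphin arrays of Id3 lay below the solvent arrays without overlap, by a log2 difference of -1.15 ± 0.33 (SE) that did not pass (95% interval -1.97 to -0.33, adjusted p = 0.058). Stimulation without the drug gave Id3 a log2 difference of -0.90 (95% interval -1.72 to -0.09), which did not pass either (adjusted p = 0.102).

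Id1, the Id gene most closely tied to BMP signals in many cell types, was highest on the stimulated arrays. Its log2 signal was 6.90 and 6.12 on the control arrays, 7.91 and 7.88 on the stimulated arrays, 4.95 and 5.82 on the stimulated plus dorsomorphin arrays and 5.21 and 4.07 on the dorsomorphin arrays. Both dorsomorphin arrays and 1 of the 2 stimulated plus dorsomorphin arrays lay under the floor, and the arrays of these 2 groups overlapped. In linear signal the stimulated arrays read 240 and 236 and the stimulated plus dorsomorphin arrays 31.0 and 56.6. In stimulated cells under dorsomorphin Id1 fell by 2.51 ± 0.51 (SE) on the log2 scale (95% interval -3.77 to -1.25, adjusted p = 0.0226 by limma), in a comparison that called 22.1% of all genes. With signals under the floor raised to it, which makes the value a lower bound on the fall, the log2 difference was -2.37 (adjusted p = 0.00259 by limma). Raising gave both dorsomorphin arrays the same value and so narrowed the scatter in the shared model. That adjusted p is therefore no added support for the call. The pairs of replicate 1 and of replicate 2 differed by -2.96 and -2.06. The call rested on the arrays of both groups: the adjusted p was 0.0680 without stimulated replicate 1, 0.0913 without stimulated replicate 2 and 0.101 without stimulated plus dorsomorphin replicate 1. With only the 4 arrays of these 2 groups in the model it was 0.0651, and limma then called 0 of all genes, with 4040 at an unadjusted p under 0.05.

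In unstimulated cells Id1 was at least 2.45-fold lower with dorsomorphin, a bound set by the floor, and did not pass (adjusted p = 0.0659). Stimulation gave Id1 a log2 difference of 1.38 ± 0.51 (SE) over the control with no overlap between arrays (95% interval 0.13 to 2.64, adjusted p = 0.104 by limma), which did not pass. Between the stimulated plus dorsomorphin and the control arrays the log2 difference of Id1, with 1 of those 4 arrays under the floor, was -1.12 (95% interval -2.38 to 0.13, adjusted p = 0.231).

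Id2, which restrains E proteins in activated and memory T cells and in innate lymphoid cells, gave its highest signals on the control arrays. Its log2 signal was 12.90 and 12.46 on the control arrays, 12.19 and 12.22 on the stimulated plus dorsomorphin arrays, 11.88 and 11.31 on the stimulated arrays and 11.79 and 11.24 on the dorsomorphin arrays. Either treatment alone gave lower signals than the control, the 2 single treatments overlapped, and the combination lay between them and the control without overlap. No difference of Id2 passed the test in the model used. With the replicate number as a block, Id2 passed with stimulation (adjusted p = 0.0302 by limma) and with dorsomorphin in unstimulated cells (adjusted p = 0.0386), where the pairs of replicate 1 and of replicate 2 differed by -1.02 and -1.15 and by -1.11 and -1.22. Without a block, Id2 also passed in both with a 60th percentile filter, an offset of 16, or signals under the floor raised to it. A variance trend and robust fit called it in both as well. Together with the block, these were 5 of 21 alternative settings in each comparison, and Id2 did not pass in the rest. The rest included either centring, cyclic loess, no filter and the mean of its probe sets. Id2 lay far above the floor on every array. The filter and the raised floor therefore left its signals unchanged and moved only the shared spread and the adjustment, so that these calls are no independent support. The log2 difference under dorsomorphin was -1.16 ± 0.33 (SE) in unstimulated cells (95% interval -1.96 to -0.36, adjusted p = 0.070) and 0.61 ± 0.33 (SE) in stimulated cells (95% interval -0.19 to 1.41, adjusted p = 0.236). The interaction, which is the second of these minus the first, was 1.78 ± 0.46 (SE) on the log2 scale (95% interval 0.64 to 2.91) and did not pass (adjusted p = 0.095 by limma). It called 0.0858% of genes, 12 in all, and none of the 6 members. Stimulation without the drug gave Id2 a log2 difference of -1.08 (95% interval -1.88 to -0.28, adjusted p = 0.062).

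**Figure D1:**
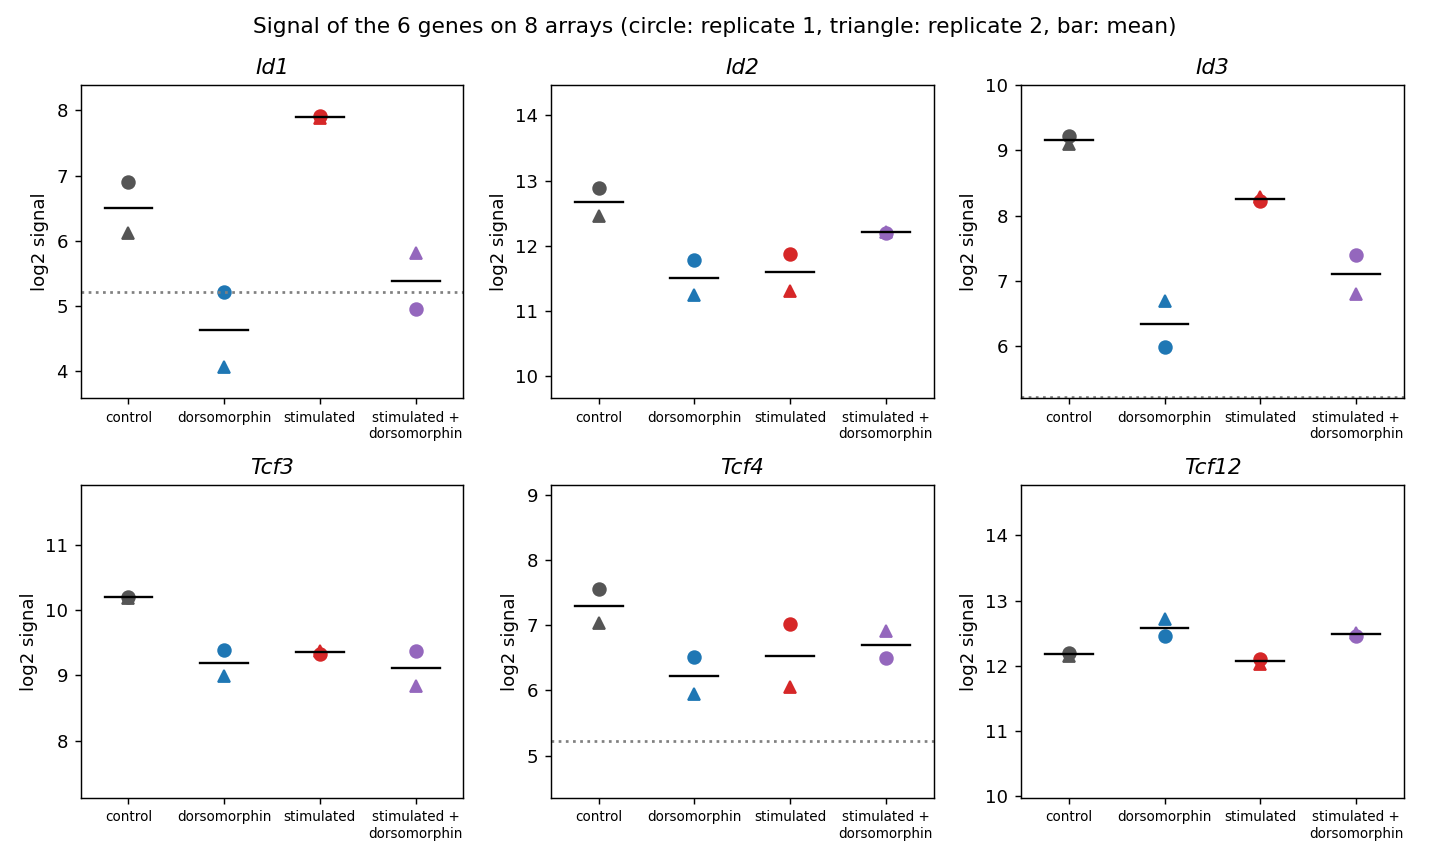
Log2 signal of the 6 genes on each of the 8 arrays, with 1 panel for each gene, the 4 groups on the horizontal axis, a circle for replicate 1, a triangle for replicate 2, a bar for the mean of 2 arrays and a dotted line at the floor of 5.22 where it falls in the panel. Every vertical axis spans the same number of log2 units; the Id3 arrays run from 9.22 in the control to 5.99 with dorsomorphin, and the Id1 arrays from 7.91 in stimulated cells to 4.07 with dorsomorphin.

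Among the E protein genes, Tcf3 had its highest signals on the control arrays. Tcf3, which encodes the E12 and E47 proteins needed for B and T cell development, gave log2 signals of 10.20 and 10.19 on the control arrays, 9.39 and 8.997 on the dorsomorphin arrays, 9.33 and 9.37 on the stimulated arrays and 9.38 and 8.84 on the stimulated plus dorsomorphin arrays. Both control arrays lay above the other 6, whose 3 groups overlapped. The log2 difference from the control was -0.998 ± 0.27 (SE) with dorsomorphin (95% interval -1.67 to -0.33, adjusted p = 0.066), -0.84 ± 0.27 (SE) with stimulation (95% interval -1.51 to -0.17, adjusted p = 0.075) and -1.08 ± 0.27 (SE) with both (adjusted p = 0.070), and none passed in limma. In stimulated cells dorsomorphin gave Tcf3 a log2 difference of -0.24 (95% interval -0.92 to 0.43), which turned to 0.00 when arrays were centred on the median of the tested genes.

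Tcf4, an E protein best known for directing plasmacytoid dendritic cells, likewise gave its highest signals on the control arrays. Its log2 signal was 7.55 and 7.03 on the control arrays, 6.50 and 5.95 on the dorsomorphin arrays, 7.02 and 6.05 on the stimulated arrays and 6.49 and 6.90 on the stimulated plus dorsomorphin arrays. Both control arrays lay above the other 6, the lower by only a small step, and the other 3 groups overlapped. With dorsomorphin in unstimulated cells the log2 difference was -1.07 ± 0.42 (SE) (95% interval -2.11 to -0.02), and it did not pass (adjusted p = 0.153 by limma). In stimulated cells it was 0.16 (95% interval -0.88 to 1.21, adjusted p = 0.823).

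Tcf12, the E protein that pairs with E2A products in thymocytes, was the one gene of the 6 with higher signals under dorsomorphin in both unstimulated and stimulated cells. Its log2 signal was 12.20 and 12.16 on the control arrays, 12.45 and 12.72 on the dorsomorphin arrays, 12.11 and 12.03 on the stimulated arrays and 12.45 and 12.51 on the stimulated plus dorsomorphin arrays. All 4 drug arrays lay above all 4 arrays without it. The log2 difference under dorsomorphin was 0.41 ± 0.21 (SE) in unstimulated cells (95% interval -0.11 to 0.93, adjusted p = 0.244) and 0.41 ± 0.21 (SE) in stimulated cells (95% interval -0.10 to 0.93, adjusted p = 0.218), and neither passed in limma. Their difference, the interaction, was 0.00 on the log2 scale (adjusted p = 0.997). Centring the arrays on the median of the tested genes raised the first of these to 1.24 (adjusted p = 0.0355), while cyclic loess lowered it to 0.22. Stimulation gave Tcf12 a log2 difference of -0.11 (95% interval -0.62 to 0.41) as deposited and 0.37 when arrays were centred on the median of all genes, so that its sign was not settled.

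Counted over the 6 genes, dorsomorphin in unstimulated cells gave 1 call, Id3, and the arrays of the 2 groups did not overlap for 6 of 6, against 65.5% of all tested genes. The members' median log2 difference there was -1.11, and that of all tested genes -0.24. In stimulated cells dorsomorphin gave 1 call, Id1, and 4 of 6 members did not overlap, against 60.5% of all genes, with medians of -0.04 for the members and 0.07 for all genes. Stimulation without the drug called 0 of 6, at adjusted p-values of 0.062 to 0.749 in limma, in a comparison that called 23.4% of genes. Of the 6, 4 had a 95% interval that left out 0 before adjustment, Id1 above it and Id2, Id3 and Tcf3 below it. By the same criterion, an unadjusted limma p under 0.05, 5364 of all 13983 tested genes did so too. The arrays did not overlap for 6 of 6 members with stimulation, against 67.1% of all genes, and the medians were -0.80 and -0.27. With 6 genes these counts are a description, and calls and separate arrays were common among all genes too.

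Under dorsomorphin, stimulation made no call among the 6 genes or elsewhere: limma called 0 of 13983 genes (0%), and 539 had an unadjusted p under 0.05. Id2 and Id3 had log2 differences of 0.69 and 0.76 in that comparison, and Tcf4 0.47. Those of Tcf3 and Tcf12 were -0.09 and -0.11. The arrays of Id2 and Id3 did not overlap, which makes 2 of 6 members against 27.5% of all genes. For Id1, both dorsomorphin arrays and 1 of the 2 stimulated plus dorsomorphin arrays lay under the floor, so that the values give neither a size nor a bound. Its arrays overlapped, and the pairs of replicate 1 and of replicate 2 differed by -0.26 and 1.75. With stimulation and dorsomorphin together, 1 of 6 members, Id3, passed against the control, the arrays did not overlap for 6 of 6 against 61.1% of all genes, and the medians were -0.84 for the members and -0.14 for all genes.

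**Figure D2:**
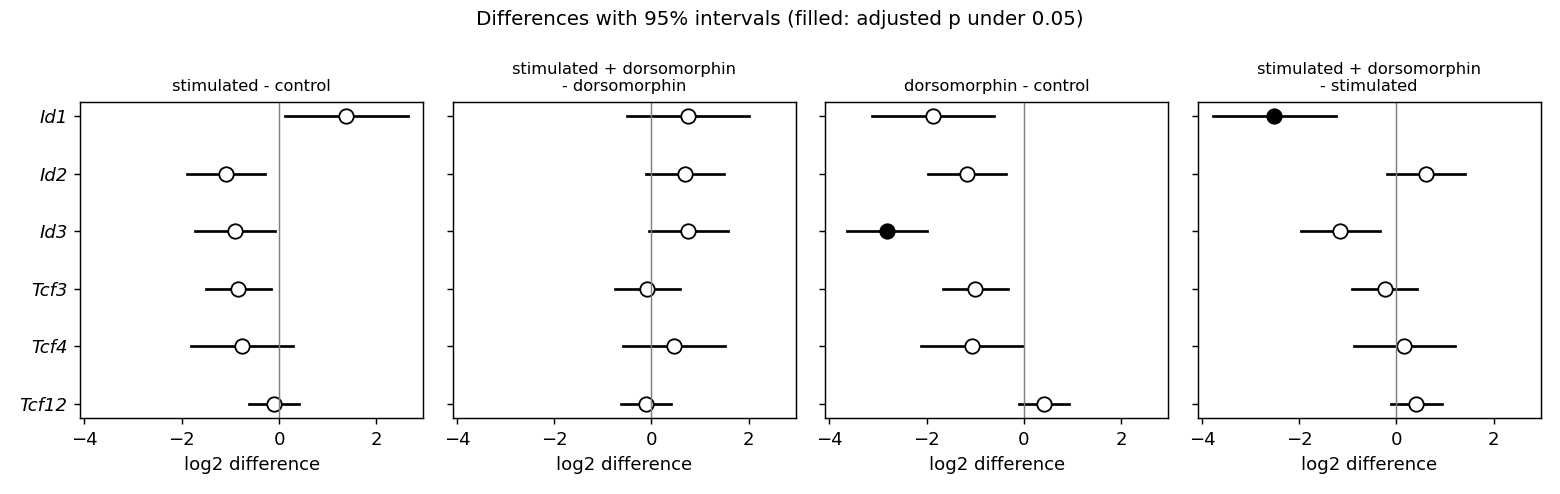
Log2 differences of the 6 genes in 4 comparisons, with the gene on the vertical axis, the difference on the horizontal axis, bars for 95% intervals and filled points for an adjusted p under 0.05. The filled points are Id3 at -2.82 with dorsomorphin in unstimulated cells and Id1 at -2.51 with dorsomorphin in stimulated cells; the open points did not pass, and the Id1 points that use the dorsomorphin group are fitted to arrays under the floor.

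The scale between arrays moved these values. As deposited, the median log2 difference of all tested genes with dorsomorphin in unstimulated cells was -0.24, and it became 0.36 with arrays centred on the median of all genes, 0.60 with the median of the tested genes and 0.05 with cyclic loess. Under these 3 scalings Id3 had log2 differences of -2.22, -1.98 and -2.04 and passed under each. The same scalings left Id1 in stimulated cells at -2.53, -2.26 and -2.59, again past the threshold each time. For Id2, Tcf3 and Tcf4 the dorsomorphin difference in unstimulated cells stayed below 0 under each of them, at -0.56, -0.40 and -0.47 with centring on all genes, but at only -0.33, -0.17 and -0.23 with centring on the tested genes.

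Other probe sets of the same genes were fitted in the same model over 31996 probe sets. Id1 and Id3 have 1 probe set each, so that their values have no second reading on this array. The 3 probe sets of Id2 all had negative dorsomorphin differences in unstimulated cells (log2 -1.16, -1.33 and -0.73) and positive ones in stimulated cells (0.61, 0.42 and 0.65), and none passed. For Tcf3 the second brightest probe set fell by 1.43 on the log2 scale in unstimulated cells (adjusted p = 0.0491 by limma over probe sets), and the third, with 1 array of each group under the floor, gave overlapping arrays. Of the 6 probe sets of Tcf4, 5 had dorsomorphin differences of -1.71 to -0.16 in unstimulated cells, 2 of these 5 with 1 dorsomorphin array under the floor. For the sixth, neither dorsomorphin array reached the floor, and its signal was at least 1.92-fold lower. The lowest adjusted p among the 6 was 0.0533, and in stimulated cells the differences had both signs. The 5 probe sets of Tcf12 had positive differences in both, 0.36 to 1.03 in unstimulated and 0.13 to 1.05 in stimulated cells, with no call. Probe sets of 1 gene can read different transcript ends and isoforms, and which isoform each one reads was not analysed here.

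**Figure D3:**
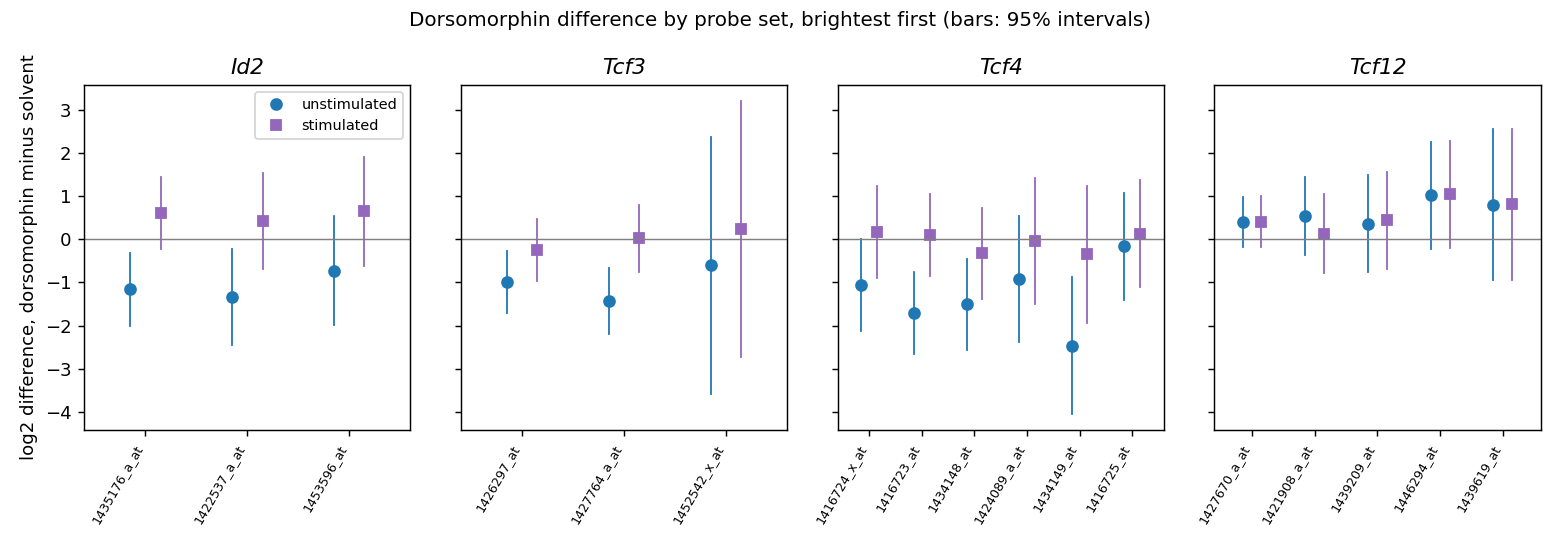
Dorsomorphin difference on the log2 scale for every probe set of the 4 genes that have more than 1, ordered from the brightest to the dimmest, with circles for unstimulated and squares for stimulated cells and bars for 95% intervals; points are fitted values, also where arrays lie under the floor, as both dorsomorphin arrays do for 1 Tcf4 probe set. All 3 probe sets of Id2 lie below 0 in unstimulated and above 0 in stimulated cells, all 6 of Tcf4 below 0 in unstimulated cells, and all 5 of Tcf12 above 0 in both.

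The genes whose pattern over the 8 arrays was most like that of a member were found by the root mean square difference of log2 signals after each gene's own mean was subtracted. Genes with clone names and the 6 members were left out of this search. For Id3 the nearest were Pign, Cdk10 and Slc39a13 (0.227, 0.282 and 0.284 log2 units). Pign, an enzyme of glycosylphosphatidylinositol anchor synthesis, had group means of 8.68 in the control, 6.21 with dorsomorphin, 8.13 with stimulation and 6.66 with both. For Id1 they were Shfl, Sptlc1 and Ide (0.242, 0.276 and 0.290), and for Id2 Tram2, Tpmt and Bcl11b (0.152, 0.153 and 0.154). Bcl11b, a transcription factor of T cell commitment, had group means of 13.41 in the control, 12.30 with dorsomorphin, 12.25 with stimulation and 12.67 with both. It was highest in the control and next with both treatments, as for Id2, a likeness set by how it was chosen. The nearest to Tcf3 were Foxk1, Atxn1l and Zfp12 (0.0644, 0.0723 and 0.0965), to Tcf4 Tmem268, Rab19 and Frs3 (0.184, 0.186 and 0.192) and to Tcf12 Ndfip2, Ywhaz and Atp6ap2 (0.0546, 0.0621 and 0.0678). A small distance is easier to reach for a gene that varies little, such as Tcf12, whose SD over the 8 arrays was 0.24, than for Id1, whose SD was 1.38.

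The genes around the Id and E proteins were followed as 4 lists. Among all tested genes, 1.92% were called higher and 11.1% lower with dorsomorphin in unstimulated cells, 9.71% and 12.4% with dorsomorphin in stimulated cells, and 8.98% and 14.4% with stimulation. Of 15 dimer partners and cofactors of E proteins, 10 were tested, and Ascl2 and Msc lay below the floor on all 8 arrays. Dorsomorphin in unstimulated cells called none of the 10 (median log2 difference -0.20, that of all genes -0.24). In stimulated cells the acetyltransferase genes Kat2b and Crebbp rose with the drug, by 2.01 ± 0.39 and 0.93 ± 0.24 (SE) on the log2 scale (adjusted p = 0.0189 and 0.0418 by limma), and the list's median was 0.64 against 0.07 for all genes. Stimulation without the drug lowered 3, the adaptor gene Ldb1 and the acetyltransferase genes Kat2b and Ep300 (log2 differences -1.85, -1.61 and -1.22). The 2 calls were 0 without either stimulated plus dorsomorphin array, and the 3 calls 0 without either control array or stimulated replicate 2. Lmo2, a partner of E protein complexes in blood progenitors, fell by 1.84 ± 0.37 (SE) against the control with both treatments (adjusted p = 0.0435 by limma), and that call was lost with each of the 3 other scalings, with the replicate block, with no filter, with probe sets averaged per gene, with only the 4 arrays compared and without either control, dorsomorphin or stimulated plus dorsomorphin array.

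Of 16 genes linked to E protein activity in the T lineage, 13 were tested, and Rag1 and Rag2 lay below the floor on all 8 arrays. With dorsomorphin in unstimulated cells Notch1, a receptor gene of T cell fate, and Cxcr5, a follicle-homing receptor gene known to be held down by Id proteins, fell, with log2 differences of -1.74 ± 0.32 and -1.502 ± 0.27 (SE) (adjusted p = 0.0271 and 0.0246 by limma). The list's median was -0.69 as deposited, and neither call stayed with centring on all genes, where the median was -0.09. In stimulated cells the repressor gene Gfi1 and Notch1 fell with the drug, with log2 differences of -4.74 ± 0.38 and -2.03 ± 0.32 (SE) (adjusted p = 0.00576 and 0.0119 by limma), and the quiescence factor gene Foxo1 rose by 1.71 ± 0.35 (SE) (adjusted p = 0.0225). Stimulation alone raised 2 of the 13, Gfi1 and the cytokine signal inhibitor gene Socs1, (4.22 and 3.09), and lowered 3, among them Il7r, the interleukin 7 receptor gene (-4.52), and Foxo1 (-1.60). Without either control array the counts with stimulation were 0 and 0, and without stimulated replicate 2 they were 1 and 0. The Foxo1 rise under the drug left a count of 0 without either control array, stimulated replicate 2 or either stimulated plus dorsomorphin array, and the 2 genes that fell were 1 without stimulated plus dorsomorphin replicate 1. With dorsomorphin in unstimulated cells the 2 calls were 0 without any one of the control and dorsomorphin arrays.

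Of 21 genes of the BMP receptor to SMAD route, 14 were tested, and the ligand genes Bmp2 and Bmp6, the receptor gene Bmpr1b and the antagonist gene Nog lay below the floor on all 8 arrays. In unstimulated cells, where Id3 fell, dorsomorphin raised 2 of the 14, the decoy receptor gene Bambi by 1.21 ± 0.26 (SE) and the type I receptor gene Acvr1 by 1.07 ± 0.21 (SE) on the log2 scale (adjusted p = 0.0365 and 0.0320 by limma), and lowered none. In stimulated cells, where Id1 fell, it raised 8 of the 14. The 4 with the largest fitted differences were Acvr2b, a type II receptor gene (2.91), Smurf1, a ubiquitin ligase gene (2.62), Smad4, the common SMAD gene (1.92), and Smad7, an inhibitory SMAD gene (1.62). The mean of Acvr2b on the stimulated arrays was 2.69, under the floor, so that the size of a difference using that group is not resolved. None of the 14 fell there, and the median was 1.08 against 0.07 for all genes. Stimulation without the drug lowered 6 of the 14 (median -0.73) and raised none. These 6 were 4 with centring on all genes (median -0.26) and 0 without either control array or stimulated replicate 2. The 2 raised in unstimulated cells were 6 with centring on the tested genes (median 1.22), and 0 or 1 with any array left out. The count of 8 became 4 with centring on all genes, 4 without either control array or stimulated plus dorsomorphin replicate 2, 2 without stimulated replicate 2 and 1 without stimulated plus dorsomorphin replicate 1, while the median stayed between 1.06 and 1.17 in each of these.

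Of 18 genes of the ERK to Egr route, 16 were tested. Stimulation raised 7 of them and lowered none, the 4 largest being Egr3 (6.97), Egr2 (6.20), the feedback inhibitor gene Spry1 (5.82) and the ERK phosphatase gene Dusp6 (3.99). In stimulated cells dorsomorphin lowered 9 of the 16, and Egr2, Spry1, Egr3 and Dusp6 had log2 differences of -5.45, -5.42, -4.98 and -4.25 (adjusted p-values of 0.00313 to 0.00788 by limma), with a median of -1.70. In unstimulated cells it lowered 2, the Egr corepressor gene Nab2 and the ERK-activating kinase gene Map2k2 (-1.89 and -1.75). Id1 too was highest on the stimulated arrays, while Id3 and Id2 had lower signals there than on the control arrays. The 7 genes raised by stimulation were 4 without stimulated replicate 2, and 0 without control replicate 1 or control replicate 2. The 9 lowered by the drug were 7 to 9 with each array left out in turn. The interaction passed for Egr2 and Spry1 (log2 -5.14 and -5.29), 2 of the 12 genes it called. That count of 2 was 0 with the replicate block, with centring on all genes, with no filter and without each array in turn except stimulated replicate 1. The 2 genes lowered by the drug in unstimulated cells were 0 without either control array or dorsomorphin replicate 2 and 1 without dorsomorphin replicate 1.

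**Figure D4:**
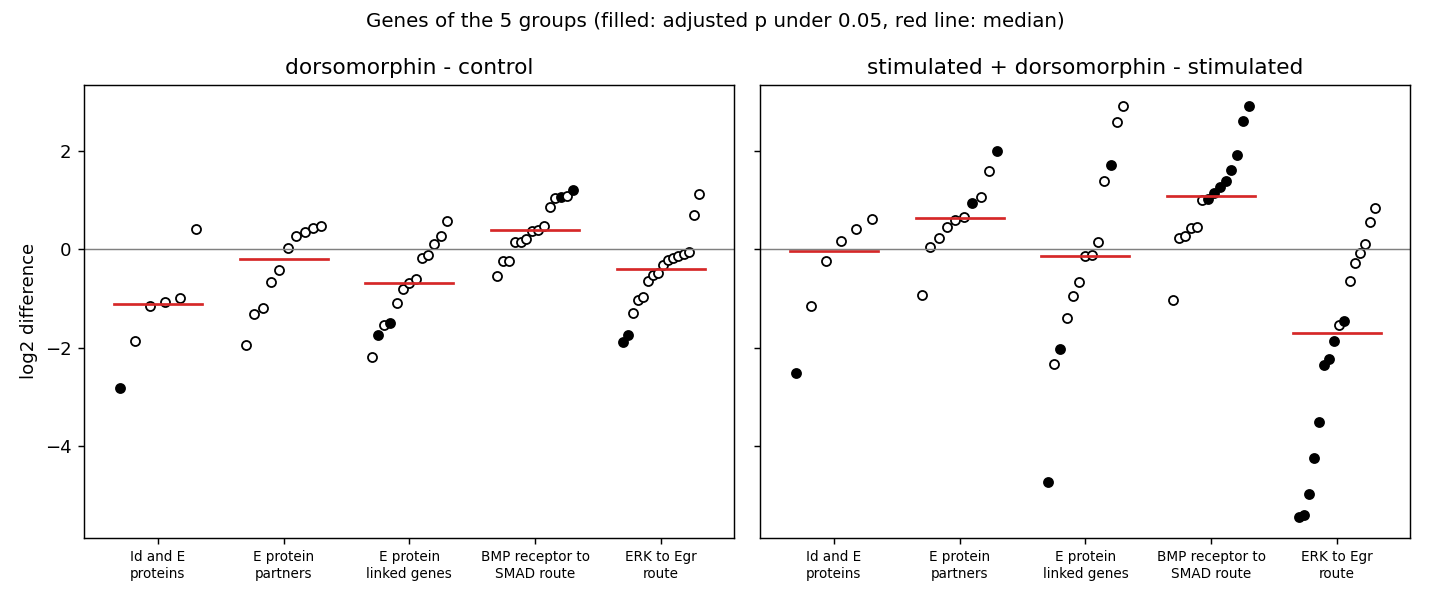
Log2 difference of each tested gene with dorsomorphin in unstimulated (left) and stimulated (right) cells, for the 6 Id and E protein genes and the 4 lists around them, with filled points for an adjusted p under 0.05 and a red line at each median. In stimulated cells 8 of 14 BMP receptor to SMAD genes are filled above 0 and 9 of 16 ERK to Egr genes filled below 0, while Id1 is the filled point among the 6.

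Markers of T cells and of other cells were followed in unstimulated cells too, where 11.1% of all tested genes were called lower with dorsomorphin. Below, a marker is said to fall, or to be lower or higher, only if it was called. With dorsomorphin 5 of 7 measured CD4 T cell markers fell. Among these 5, Cd3g, Cd3e, Thy1 and Cd5 fell the most (log2 differences -3.51, -2.22, -2.12 and -2.09, adjusted p-values of 0.0109 to 0.0354 by limma). Cd4 was not called, with means of 10.90 on the control and 8.70 on the dorsomorphin arrays. The summed linear signal of the 7 was 68555 to 69056 on the control and 22497 to 30836 on the dorsomorphin arrays. In whole-culture RNA fewer cells of a type and less RNA per cell cannot be told apart. For plasmacytoid dendritic cells, which carry Tcf4, 1 of 8 measured markers fell, Pacsin1 (-3.19), and the list's median was -1.75 against -0.24 for all genes. The summed signal was 1734 to 2101 on the control and 697 to 908 on the dorsomorphin arrays. Pacsin1 and Ccr9 had the highest control means of that list (9.48 and 9.11), so that the sum follows these genes most. For natural killer and innate lymphoid cells, which carry Id2, 2 of 7 tested markers fell, Klrd1 and Gzma, Klra8 lay below the floor on all 8 arrays, and the summed signal was 1965 to 2369 against 613 to 827. For B cells, which carry Tcf3, 1 of 7 tested markers fell, Ms4a1 (-1.53), Ebf1 lay below the floor on all 8 arrays, and the summed signal was 631 to 666 against 318 to 368. For myeloid and dendritic cells 3 of 11 fell, Flt3, Csf1r and Adgre1, and the summed signal was 2974 to 3976 against 1392 to 1532. Flt3 lay above the floor on only 2 of the 8 arrays, with means of 6.20 in the control and 3.22 with dorsomorphin. The size of its fall is therefore not resolved. The dorsomorphin mean of Ms4a1, 5.20, lay just under the floor too. The 2 CD8 markers gave no call and summed signals of 347 to 487 against 160 to 316. With either centring or cyclic loess, 0 natural killer and 0 B cell markers were called. The myeloid and the plasmacytoid list each had 1 marker lower under these scalings. Centring on the tested genes also called 2 plasmacytoid markers and 1 myeloid marker higher. The 5 CD4 T cell calls became 2 with centring on all genes, the list's median then being -1.52. Calls were lost with each control or dorsomorphin array left out, and fully so without either control array. The list's median in these fits was -2.35 to -1.65.

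In stimulated cells, where Id1 fell with the drug, 9.71% of all tested genes were called higher and 12.4% lower. The CD4 T cell markers there summed to 47800 to 48682 without and 32893 to 32966 with dorsomorphin, with Cd3g and Cd5 lower and Cd28 higher among the 7. The B cell markers summed to 304 to 394 without and 528 to 574 with the drug, with Cd79b and Cd22 higher. The plasmacytoid markers summed to 1375 to 2689 and 890 to 1198, with Pacsin1 and Klk1 lower, and the natural killer markers to 1185 to 1521 and 728 to 989, with Nkg7 and Gzma lower and Klrd1 higher. The myeloid and dendritic markers summed to 847 to 1534 without and 1079 to 1505 with the drug, with Xcr1 lower, and the CD8 markers to 196 to 290 and 176 to 281 with no call, so that the arrays overlapped for both. Both group means of Xcr1, 4.97 without and 3.22 with the drug, lay under the floor. So did the stimulated means of Cd79b and Cd22 (4.94 and 5.18) and the stimulated plus dorsomorphin mean of Nkg7 (5.04). The part of these marker differences in the values of Id1, Id2, Id3, Tcf3 and Tcf4 was not tested.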

How the data were processed

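Per the labels' protocols, RNA from column kits was labelled with biotin by in vitro transcription and hybridised to 8 arrays. The authors deposited 1 intensity per probe set and array. RMA and affy are named in the submitters' processing notes, and their versions are not given in the sources used here. These values are linear, with a 2% trimmed mean of 500 on every array, which is not RMA's log2 scale, so how they were made is unknown. Log2 was taken without an offset.

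Of 45101 probe sets, 34945 have 1 symbol in the platform annotation, 932 several and 9160 none. The brightest probe set stood for each of 18193 genes. A gene was tested if its signal exceeded the 40th percentile of all values (37.3) on at least 2 arrays. limma 3.58.1 in R 4.3.3 fitted 4 groups in a single model (4 residual and 1.90 prior degrees of freedom) after a test on simulated data. Intervals use the same moderated spread.

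The 6 members and all lists were chosen with earlier results of these data known. All members are named, up to 4 genes past the threshold with the largest difference per list and comparison, and the 3 genes most like each member. Alternatives covered scaling, filter, floor, offset, probe set rule, arrays fitted, variance model, replicate block and each array left out. The number of arrays limits precision.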

Additional observations from a re-analysis of the deposited data

Results flagged for a closer look

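For Id2, both arrays of the brightest probe set were lower with dorsomorphin in unstimulated cells and higher in stimulated cells. Its other probe sets had overlapping arrays in stimulated cells. For the brightest, the difference between the dorsomorphin differences was 1.78 on the log2 scale. Seen the other way, Id2 moved down with stimulation in solvent and up with stimulation under dorsomorphin, which is the same interaction of 1.78. For Id3, both arrays moved down with stimulation in solvent and up with stimulation under dorsomorphin, an interaction of 1.67 on the log2 scale. The interaction was tested with limma and passed for neither gene (adjusted p = 0.095 for Id2 and 0.104 for Id3), so that a difference between the backgrounds is not shown. Without adjustment, 3687 of the 13983 genes had an interaction p under 0.05, and the median interaction of all genes was 0.35.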

How the results depend on the processing

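With 2 arrays a group, calls on single genes were fragile. Id3 with dorsomorphin in unstimulated cells passed in 17 of 19 alternative settings (log2 difference -3.17 to -1.98, adjusted p 0.00078 to 0.0939), Id1 with dorsomorphin in stimulated cells in 15 of 19 (-2.94 to -2.07, adjusted p 0.00259 to 0.101), and Id3 with both treatments against the control in 10 of 19 (-2.36 to -1.37, adjusted p 0.00542 to 0.164). These counts include settings that left out an array of neither compared group, which changes only the shared spread and not the difference. The lowest adjusted p of Id1 came with signals raised to the floor, which narrows their scatter. The direction of these 3 differences was kept in each setting. The causes of the changes were not tested. Where both arrays of a group lie under the floor a value is at most a bound, as for Id1 and 1 Tcf4 probe set with dorsomorphin. Tcf3 and Tcf4 have 1 further probe set each with 1 array under the floor in every group.

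The number of the 6 genes called with stimulation, 0 in the model used, was 4 with a 60th percentile filter, 3 with signals under the floor raised to it (chosen after seeing the data), 2 with an offset of 16, 2 with a variance trend and robust fit, 1 with the replicate block and 1 with centring on the tested genes (likewise), and 0 with each array left out. With dorsomorphin in unstimulated cells the count of 1 was 4 with the 60th percentile filter, the raised floor, the offset or the trend, 2 with the block or centring on the tested genes, and 0 to 1 with 1 array left out. With dorsomorphin in stimulated cells the count of 1 was 2 with that filter, raised floor, offset or trend, 0 with only the 4 arrays compared, and 0 to 1 with 1 array left out. The interaction count of 0 was 2 with the filter, Id2 and Id3, 1 with the trend or the raised floor, Id2, and 0 with each array left out. Both treatments against the control gave 2 in place of 1 with the filter, raised floor, offset or trend, and 0 with either centring, cyclic loess, no filter or only the 4 arrays. Id1 lay above the 60th percentile floor of 6.903 only on its 2 stimulated arrays (7.91 and 7.88). Its calls with that filter in comparisons using the stimulated group are therefore partly set by the filter.

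Values near 0 changed sign. For Tcf12, stimulation gave 0.37 with centring on all genes, 0.33 on the tested genes and 0.25 with a second probe set, against -0.11. Its interaction of 0.00 was -0.62, -0.58, -0.060 with the mean of its probe sets, -0.41 with a second probe set and -0.13 to 0.14 with 1 array left out. Its stimulation difference under dorsomorphin of -0.11 was -0.24 to 0.028 with 1 array left out. For Tcf3, stimulation under dorsomorphin was 0.059 with the mean of probe sets, 0.33 with a second probe set and -0.35 to 0.18 with 1 array left out, against -0.09. Its dorsomorphin difference in stimulated cells of -0.24 was 0.0019 with centring on the tested genes, 0.0079 with the mean, 0.021 and 0.25 with the other probe sets and -0.51 to 0.021 with 1 array left out. For Tcf4 that difference of 0.16 was -0.054 with the mean, -0.33, -0.040 and -0.35 with 3 other probe sets and -0.32 to 0.65 with 1 array left out, and stimulation under dorsomorphin was -0.26 with 1 other probe set, against 0.47. With both treatments against the control, Tcf4 was 0.091 with centring on the tested genes and 0.0914 with 1 other probe set, against -0.60, and Id2 0.22 with that centring, against -0.47.

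The labels do not say what a replicate number marks. Deviations of same-numbered arrays correlated at 0.069 to 0.178 between groups, above 0 in 6 of 6 pairs of groups and above 0.1 in 4, and the Dap and Thr spike-ins split by number in every group. Since not every pair exceeded 0.1, the numbers were not taken as pairs, and whether they mark a shared batch was not tested. With the number as a block, Id2 passed with stimulation (adjusted p = 0.0302) and with dorsomorphin in unstimulated cells (adjusted p = 0.0386 by limma), and the block changed no other call among the 6 genes.

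Over all genes, limma's calls ranged from 0 to 4518 with stimulation (3269 in the model used), 0 to 3103 with dorsomorphin in unstimulated cells (1825), 0 to 4098 in stimulated cells (3096), 0 to 2036 for the interaction (12) and 0 to 2202 for both treatments against the control (1010). With dorsomorphin in unstimulated cells 268 genes were called higher and 1557 lower as deposited, 421 and 446 with centring on all genes, 2190 and 596 on the tested genes and 409 and 736 with cyclic loess. With stimulation these were 1256 and 2013, 1406 and 971, 1701 and 1081, and 1690 and 1558. With dorsomorphin in stimulated cells they were 1358 and 1738 as deposited and 1882 and 1162 with centring on the tested genes. For both treatments against the control they were 128 and 882, 91 and 195, 532 and 264, and 153 and 425.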
